A study of Mus musculus with 30 samples.

Results

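The transcription factor p53, encoded by *Trp53*, and 31 genes known as its targets were followed through mammary tumors of mice treated with a heme oxygenase-1 (HO-1) inhibitor, a chemotherapy, or both. The 32 genes were taken by symbol from the deposited count table, which has 21841 genes, and all 32 passed the filter on low counts that left 13663 genes for testing. All mice were FVB/N-Tg(MMTV-PyVT)634Mul/J, in which the mammary tumor virus promoter drives the polyoma middle T oncogene in mammary epithelium, and the labels give the genotype of every animal as WT, so all groups share this transgene and no p53-deficient control is among them. In all, 6 groups of 5 whole-tumor libraries, 30 together, were compared: Vehicle, Gemcitabine, 5-FU, the inhibitor by itself (KCL-HO-1i), and the inhibitor together with 5-FU (KCL-HO-1i/5-FU) or with gemcitabine (KCL-HO-1i/Gemcitabine). According to the labels, all drugs were given intraperitoneally over 72 hours before tumors were collected, with KCL-HO-1i (a tin mesoporphyrin phosphate salt that inhibits HO-1) at 25 µmol/kg daily, 5-fluorouracil (5-FU) at 40 mg/kg per 4 days and gemcitabine at 64 mg/kg per 7 days. The methods of the study describe a shorter treatment and a lower gemcitabine dose for this setting, and which of them applies to these libraries is not settled here. The ages of the mice are not given in the sources used here.

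When DNA is damaged or nucleotides run short, p53 protein is stabilized and binds DNA as a tetramer, switching on genes that halt the cell cycle, repair DNA or trigger apoptosis. One of these genes, *Mdm2*, encodes the ubiquitin ligase that returns p53 to low levels, so the pathway is controlled largely at the level of protein and the transcripts of its targets are a common readout of its activity. The antimetabolites used here act on this axis from upstream: 5-FU blocks thymidylate synthesis and gemcitabine is a deoxycytidine analog that stalls DNA synthesis.

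Total counts ranged from 10067577 to 13622264 per library, so that 3 counts correspond to 0.215 to 0.302 CPM (counts scaled to a library of 1000000), the unit of all levels below. The 10 luminal epithelial markers summed to 2631 to 6117 CPM, with none at 0 in all libraries of any group, and the tissue is labelled breast. Some libraries stood apart by other tissue: the 10 skeletal muscle markers summed to 4594 CPM in KCL-HO-1i replicate 4, 1851 CPM in KCL-HO-1i replicate 3 and 14100 CPM in KCL-HO-1i/Gemcitabine replicate 2, against 1.67 to 45.0 CPM in Vehicle. The study describes its groups as cohorts of mice and tumors. The labels also give each library a sample code, whose leading number takes 13 values in the 30 libraries. What it stands for is not stated. Some numbers recur in different treatment groups, but of those in Vehicle only 84 does, in KCL-HO-1i/Gemcitabine replicate 5. Number 76 marks 5-FU replicates 1, 2 and 3 and Gemcitabine replicates 1, 2, 3 and 4, and no inhibitor-treated library. The number and the inhibitor are thus partly confounded in the tumors with chemotherapy. In whole tumors, fewer cells of a type and less RNA per cell cannot be told apart.

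Among the promoter windows of the members, those of *Cdkn1a* and *Ccng1* held the closest sequence matches to a p53 binding element. *Cdkn1a*, the gene of the cell cycle inhibitor p21, is the member with the largest difference described below, whereas *Ccng1* overlapped between those groups. RefSeq windows of 300 bases (GRCm38.p6, from 250 bases before to 50 after an annotated start) were found for 24 of the 32 genes and were searched for the p53 response element, a pair of 10-base half-sites without a spacer, on a palindromic pattern that reads alike on both strands. Only *Cdkn1a* and *Ccng1* (cyclin G1) held a 20-base match with at most 1 mismatch, whereas 0.0883% of all 32851 windows held one. The stretches below are shown because they carry these 2 closest matches; the capitals mark the 20 matched bases.
Cdkn1a, chr17:29090903-29090972, plus strand: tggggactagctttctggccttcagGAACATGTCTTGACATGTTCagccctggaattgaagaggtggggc
Ccng1, chr11:40755437-40755506, minus strand: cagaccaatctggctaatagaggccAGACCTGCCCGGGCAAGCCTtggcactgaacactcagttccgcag
The *Cdkn1a* match begins 51 bases before the upstream of its 2 annotated starts and ends 2822 bases before the downstream start, and it holds CATGNNNNNNCATG (the same on both strands, and overlapping the response element), which 0.712% of all windows hold. The *Ccng1* match begins 195 bases before the annotated start. At 3 mismatches, a further 6 members matched: *Aen*, *Bax*, *Bbc3*, *Polk*, *Sesn1* and *Trp53*. Of these, *Bax*, *Bbc3* and *Polk* are among the members with separated groups below, and *Aen*, *Sesn1* and *Trp53* are not. Other separated members, *Btg2*, *Ephx1*, *Sesn2* and *Eda2r*, had 4 to 6 mismatches at best. A relation between match and separation was not tested. The matched bases of *Bax*, *Bbc3* and *Polk* are given below.
Bax, chr7:45467090-45467109, minus strand: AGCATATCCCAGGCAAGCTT
Bbc3, chr7:16309486-16309505, plus strand: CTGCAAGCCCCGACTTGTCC
Polk, chr13:96519409-96519428, minus strand: CATGTAGCTTGAACTAGCCT
Matches of this looser kind were common, in 6.29% of all windows and in 9 of the 35 member windows. A match describes letters only, and members without one may carry an element outside their window.

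In Vehicle tumors the members differed widely in level. Per kilobase of merged exon (GENCODE M21), *Ephx1*, the microsomal epoxide hydrolase, had the highest level at 79.0 ± 18.2 CPM (SD, n = 5), followed by *Perp*, a membrane protein of desmosomes, at 73.6 ± 12.7 and *Bax*, which opens the mitochondrial outer membrane in apoptosis, at 66.2 ± 11.5. These 3 levels overlapped within their SDs. *Cdkn1a* stood at 29.1 ± 8.65 CPM per kilobase, *Trp53* at 22.7 ± 2.53 and *Mdm2* at 12.1 ± 1.40. The lowest levels were those of *Eda2r*, a receptor of the tumor necrosis factor family, at 0.805 ± 0.349, of the stress cytokine *Gdf15* at 0.650 ± 0.454 and of *Pidd1*, a caspase-2 activating scaffold, at 0.584 ± 0.406. *Pidd1* was listed at 0 in 4 libraries beside values of 1.11 to 6.87 CPM in the others, and *Gdf15* did not exceed 6.78 CPM in any library, so both rest on few counts. Among KCL-HO-1i tumors, *Pidd1* had 0 counts in replicate 1 and 31 to 39 counts in the others. The origin of its zeros was not tested.

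The question of the combined treatments is whether HO-1 inhibition alters the response to a chemotherapy. For the p53 targets the widest separation lay between KCL-HO-1i tumors and KCL-HO-1i/5-FU tumors, that is, 5-FU added to the inhibitor: 30 of the 32 members had a higher mean in the combination, with a median log2 fold change of 0.41 against 0.01 over all genes tested, where 51.3% of genes were higher. None of these differences passed an adjusted p of 0.05 in edgeR's quasi-likelihood test with Benjamini-Hochberg adjustment over all genes, and neither did any other gene (0%). At an unadjusted p under 0.05, 14 members were higher and 0 were lower, beside 7.47% and 9.43% of all genes. In 9 members every combination library lay above every KCL-HO-1i library, against 1.86% of all genes.

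*Cdkn1a* shows the pattern most plainly. Its level was 57.3, 41.7, 38.4, 65.5 and 61.8 CPM in the 5 KCL-HO-1i tumors and 255.6, 235.5, 210.3, 218.7 and 178 CPM in the KCL-HO-1i/5-FU tumors. The groups were far apart, and no Vehicle tumor, at 69.9, 85.2, 120, 94.7 and 147.9 CPM, reached the combination either. The log2 fold change between the combination and KCL-HO-1i alone was 2.05 (SE 0.45), or 4.15-fold, with an unadjusted p of 0.000108 and an adjusted p of 0.102 in edgeR. DESeq2 (adjusted p = 0.00195), limma-voom with quality weights (adjusted p = 0.00597) and edgeR on the 10 libraries alone (adjusted p = 0.00311) each placed *Cdkn1a* past the threshold. In the remaining groups the tumors of a group differed more. 5-FU tumors had 55.6, 68, 125.9, 48.1 and 343.1 CPM, Gemcitabine tumors 77.8, 81.2, 149.3, 82.3 and 63.6 CPM, and KCL-HO-1i/Gemcitabine tumors 52.8, 54.1, 254.8, 121.4 and 73.38 CPM. Each of these groups thus held 1 tumor well above its others.

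**Figure D1:**
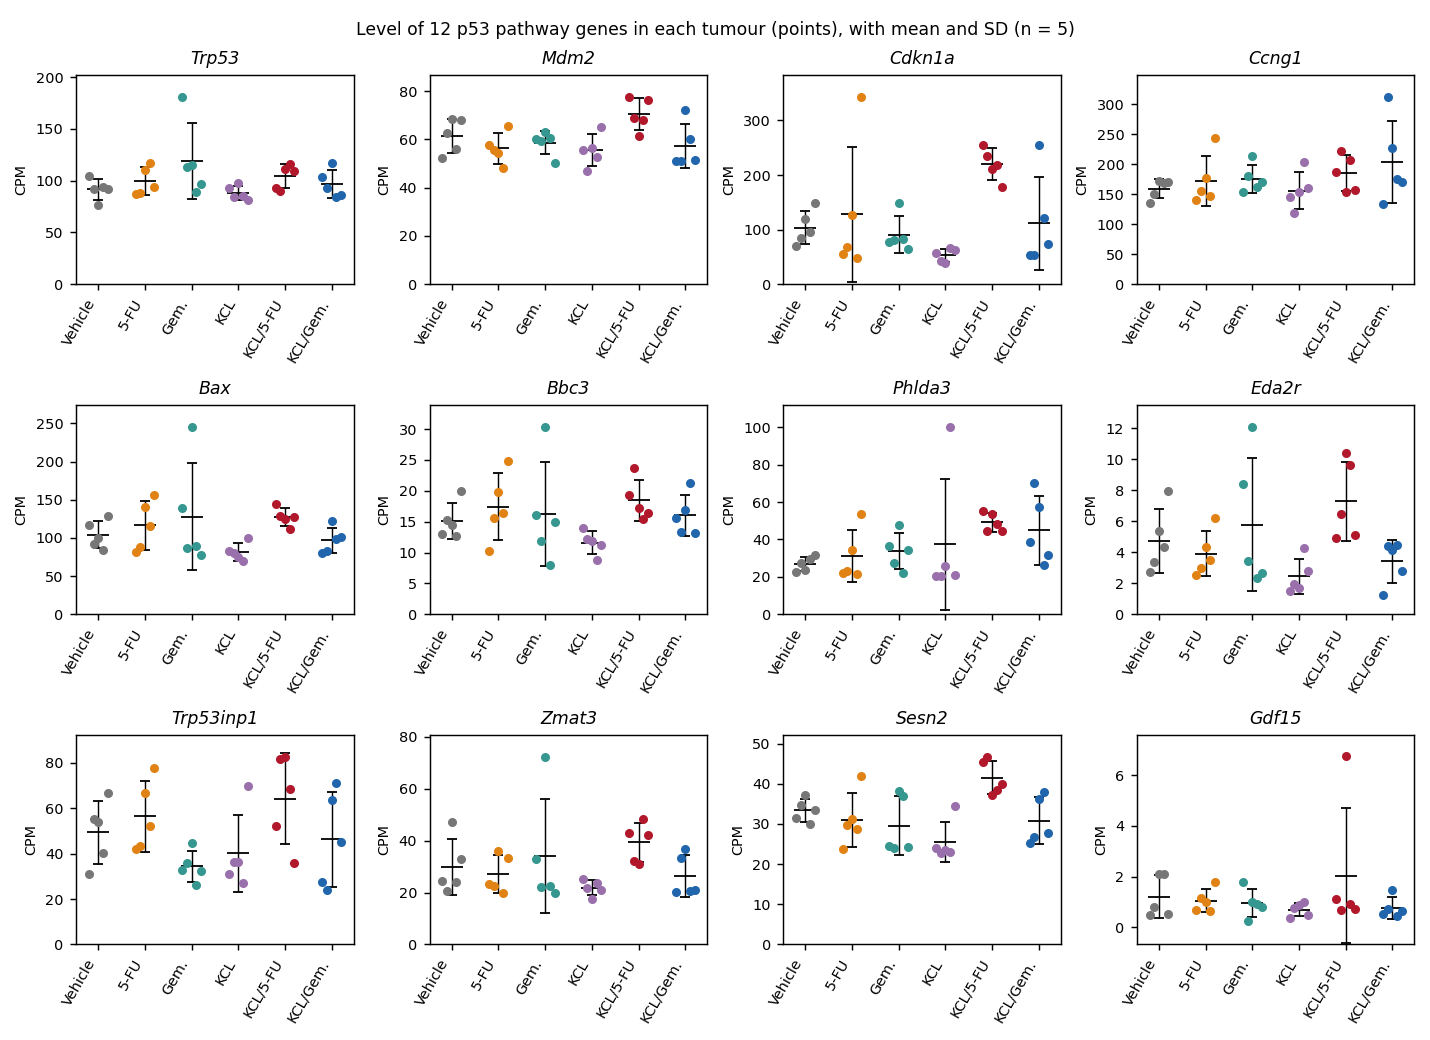
Level of 12 p53 pathway genes in CPM (linear axes) in each of the 30 tumors, by treatment group, with points for tumors and bars for the mean and SD (n = 5). The KCL-HO-1i/5-FU tumors lie above all KCL-HO-1i tumors for Cdkn1a, Bax, Bbc3, Zmat3, Eda2r and Sesn2, while Trp53 overlaps between these groups; KCL and Gem. stand for KCL-HO-1i and gemcitabine.

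Among the regulators, *Mdm2* was at 77.6, 68.8, 61.6, 68.1 and 76.34 CPM in the combination and at 55.8, 47.1, 56.6, 52.7 and 65.3 CPM with KCL-HO-1i alone. The ranges overlapped by 1 tumor of each group, and the log2 fold change was 0.34 (SE 0.11, unadjusted p = 0.00403, adjusted p = 0.129 in edgeR). *Trp53* itself had 92.9, 90.4, 111.1, 116.4 and 109.2 CPM in the combination and 93.0, 84.2, 97.9, 84.9 and 81.5 CPM with KCL-HO-1i, a log2 fold change of 0.24 (95% interval -0.05 to 0.52). The transcript of the factor thus overlapped between these groups, as did those of most members, while 9 members did not overlap.

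Of the 6 members that act on the cell cycle, *Cdkn1a* and *Plk2* (polo-like kinase 2) had an unadjusted p under 0.05. *Btg2*, an antiproliferative cofactor, had separated groups with a small difference: 66.2, 72.97, 70.9, 74.5 and 63.6 CPM in the combination against 59.0, 56.7, 58.8, 51.2 and 54.9 CPM, a log2 fold change of 0.31 (unadjusted p = 0.105). *Plk3*, another kinase of this family, was the lowest of all members, at a log2 fold change of -0.42, and its KCL-HO-1i mean rested on replicate 4 at 26.6 CPM beside 6.68 to 9.90 CPM in the other tumors.

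Of the 10 apoptosis members, 9 had a higher mean in the combination, with a median log2 fold change of 0.54, and 4 had an unadjusted p under 0.05. *Bax* was at 144.6, 128.7, 124.2, 112 and 127.5 CPM against 83.5, 80.6, 75.3, 69.3 and 100.2 CPM, without overlap (log2 fold change 0.64, SE 0.23, unadjusted p = 0.0105). *Zmat3*, an RNA-binding protein with a zinc finger, was at 43.1, 32.2, 30.8, 48.3 and 42.1 CPM against 25.3, 21.8, 17.7, 23.7 and 21.1 CPM (log2 fold change 0.84, SE 0.29, unadjusted p = 0.00753). *Bbc3*, which encodes the pro-apoptotic protein Puma, was separated as well, at 15.5 to 23.7 CPM against 8.75 to 13.99 CPM (log2 fold change 0.67, SE 0.25). *Trp53inp1*, a nuclear stress protein that binds p53, had a log2 fold change of 0.68 with overlapping groups, since KCL-HO-1i replicate 5 stood at 69.6 CPM. *Pmaip1* (Noxa) and *Apaf1*, the core of the apoptosome, had log2 fold changes of 0.55 and 0.12 and overlapped. *Perp* was the exception, with a mean slightly lower in the combination.

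The death receptors, sestrins and metabolic members held several of the strongest differences. *Eda2r* was at 4.90, 6.45, 10.4, 9.63 and 5.09 CPM in the combination against 1.51, 1.94, 1.72, 4.28 and 2.80 CPM with KCL-HO-1i (log2 fold change 1.58 with an SE of 0.45, unadjusted p = 0.00149, adjusted p = 0.113 in edgeR). *Tnfrsf10b*, the mouse receptor of the death ligand TRAIL, had a log2 fold change of 0.49 (unadjusted p = 0.00941) with overlapping groups. *Sesn2* encodes a stress-induced inhibitor of mTORC1 signalling and was at 45.4, 46.6, 37.3, 38.5 and 40.0 CPM against 23.9, 22.7, 23.5, 23.1 and 34.4 CPM. Its groups were separated, with the 34.4 CPM of KCL-HO-1i replicate 5 nearest to the combination (log2 fold change 0.70, SE 0.16, unadjusted p = 0.000174, adjusted p = 0.102 in edgeR). *Ephx1* was at 265.6, 301.5, 190.7, 266 and 240.8 CPM against 109.8, 111, 110.9, 66.4 and 138.6 CPM (log2 fold change 1.24, SE 0.29, unadjusted p = 0.00022, adjusted p = 0.102 in edgeR). Every combination tumor exceeded every KCL-HO-1i tumor for this detoxifying enzyme.

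*Polk*, a translesion DNA polymerase, was the repair member with the lowest p, at 14.4, 15.6, 16.5, 17.9 and 14.8 CPM against 11.3, 9.32, 9.78, 8.65 and 10.97 CPM. The groups were tight and separated (log2 fold change 0.66, SE 0.16, unadjusted p = 0.000271, adjusted p = 0.102 in edgeR). The excision repair genes *Ddb2* and *Xpc* and the ribonucleotide reductase subunit *Rrm2b* had log2 fold changes of 0.19, 0.17 and 0.09, each with a 95% interval that included 0 and reached no higher than 0.70. DESeq2 called *Cdkn1a*, *Eda2r*, *Ephx1*, *Polk* and *Sesn2* at an adjusted p under 0.05, that is 5 of 32 members beside 2.92% of all genes, and limma-voom called *Cdkn1a*, *Ephx1* and *Sesn2*, beside 0.146% of all genes. In edgeR, leaving out each library in turn left 11 to 15 members at an unadjusted p under 0.05. The shares of all genes in those fits are not given here.

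Without the inhibitor, 5-FU tumors did not show this separation from Vehicle tumors. The median log2 fold change of the members was 0.03, 17 of 32 were higher (50.2% of all genes), 0 had an unadjusted p under 0.05 in the higher (1.65% of all genes) or the lower direction (2.24%) and 0 passed the adjusted threshold in edgeR or DESeq2 (0% of genes in each). *Cdkn1a* had a log2 fold change of 0.31 (95% interval -0.55 to 1.16), *Ephx1* of 0.25 (-0.31 to 0.81), *Polk* of 0.02 (-0.28 to 0.33), *Sesn2* of -0.10 (-0.42 to 0.21) and *Mdm2* of -0.13 (-0.34 to 0.09). The 3 members with the smallest p were *Fas* at 0.55, *Plk3* at -0.63 and *Tnfrsf10b* at -0.27 on the log2 scale, all with an adjusted p of 0.999 in edgeR. Without Vehicle replicate 3 these values were 0.35 for *Fas* and -0.22 for *Plk3*. The tumor of 5-FU replicate 5 differed from the rest of its group, with 343.1 CPM of *Cdkn1a*, 328.5 CPM of *Ephx1* and 53.8 CPM of *Phlda3*, values at or above most of the combination tumors.

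**Figure D2:**
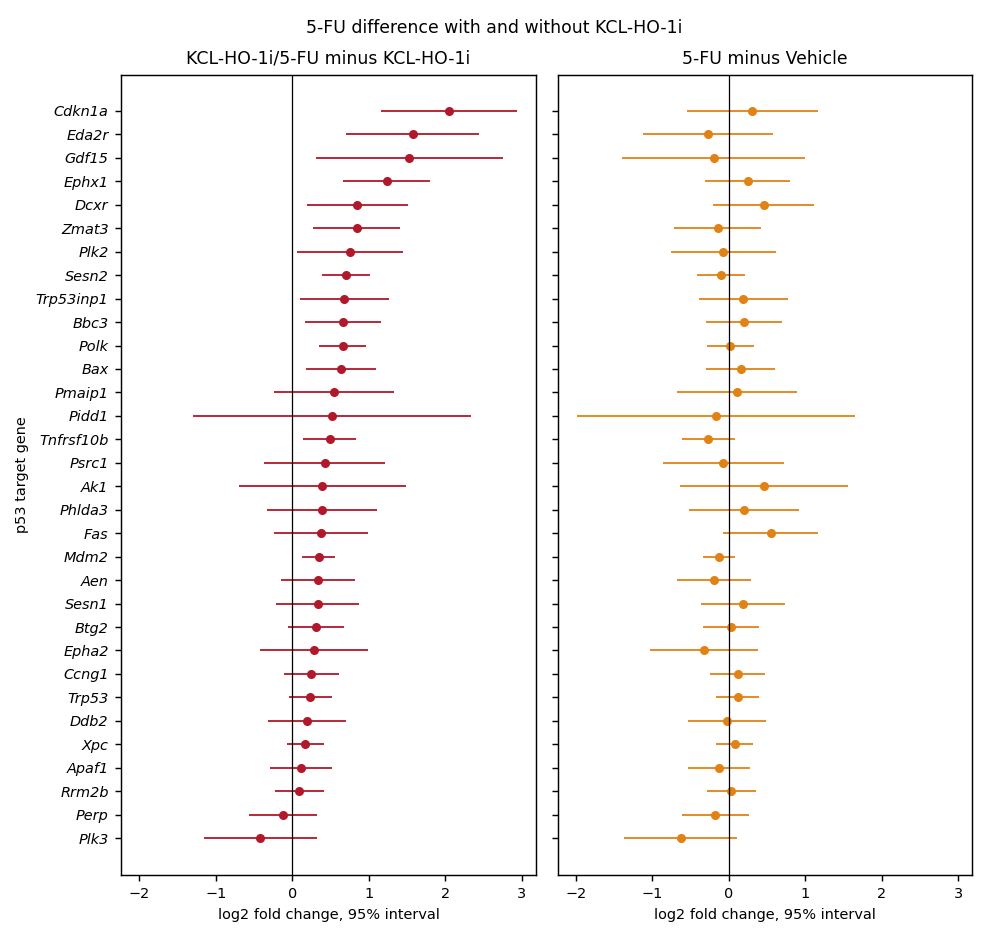
Log2 fold change with its 95% interval for each of the 32 genes when 5-FU is added to KCL-HO-1i (left) and to Vehicle (right), ordered by the left panel. On the left 30 of 32 points lie above 0 and Cdkn1a lies at 2.05; on the right 17 of 32 lie above 0 and Cdkn1a lies at 0.31.

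The difference between these 5-FU responses was tested as an interaction in the same edgeR fit. Its median over the members was 0.47 on the log2 scale (0.01 over all genes), 30 of 32 members were positive (50.6% of all genes), 8 had an unadjusted p under 0.05 in the positive direction (4.03% of all genes) and 0 in the negative (4.51%). None passed the adjusted threshold, and neither did any other gene (0%). The 3 smallest p-values belonged to *Sesn2* (0.81, SE 0.23, unadjusted p = 0.00148, adjusted p = 0.42), *Mdm2* (0.47, SE 0.15, unadjusted p = 0.00509, adjusted p = 0.45) and *Tnfrsf10b* (0.76, SE 0.25, unadjusted p = 0.00511, adjusted p = 0.45). *Cdkn1a* had an interaction of 1.75 (95% interval 0.53 to 2.96, adjusted p = 0.482). The contrast shares 10 libraries with the comparison above, so it is not a second line of data. Averaged over tumors with and without the inhibitor, 5-FU gave 10 members higher at an unadjusted p under 0.05 (5.56% of all genes) and 0 lower (6.40%), led by *Cdkn1a* at a log2 fold change of 1.18, *Ephx1* at 0.74 and *Polk* at 0.34, with adjusted p-values of 0.326 to 0.328 in edgeR. This number was 5 without 5-FU replicate 5 and 1 with the leading number of the sample code as a covariate, where the median of the members fell from 0.28 to 0.12. In the fit with that covariate, Vehicle is tied to the other groups through Vehicle replicate 1 alone.

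With the inhibitor alone, the means of most members were lower than in Vehicle tumors. Against Vehicle, 24 of 32 members were lower and 8 higher in KCL-HO-1i tumors (47.9% of all genes were higher), with a median log2 fold change of -0.25 (-0.01 over all genes). At an unadjusted p under 0.05, 3 members were lower (2.08% of all genes) and 0 higher (7.36%), and 0 passed the adjusted threshold (0% of genes). These were *Sesn2* (log2 fold change -0.39, SE 0.16, unadjusted p = 0.0234), *Cdkn1a* (-0.97, SE 0.44, unadjusted p = 0.0367) and *Eda2r* (-0.96, SE 0.44, unadjusted p = 0.0388), with adjusted p-values of 0.436 to 0.498 in edgeR. *Cdkn1a* was the only member whose groups did not overlap, its highest KCL-HO-1i value of 65.5 CPM lying below the lowest Vehicle value of 69.9 CPM (0.417% of all genes were separated in this direction). The count of 3 was unstable: it was 0 without KCL-HO-1i replicate 2 and 7 without KCL-HO-1i replicate 5. Against Vehicle, the combination KCL-HO-1i/5-FU had 28 of 32 members higher (51.4% of all genes) with a median of 0.30, 7 higher at an unadjusted p under 0.05 (9.79%), 0 lower (7.84%) and 3 without overlap (1.53%), namely *Cdkn1a* at 1.09, *Phlda3* at 0.86 and *Ak1* at 1.40 on the log2 scale. The smallest p-values there belonged to *Sesn1* (0.74, adjusted p = 0.18 in edgeR), *Ephx1* (0.72, adjusted p = 0.197) and *Ak1*. Without KCL-HO-1i/5-FU replicate 3 the values were 0.81 for *Ak1* and 0.26 for *Sesn1*, and without Vehicle replicate 1 the count of 7 was 4.

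In tumors that also received 5-FU, 31 of 32 members had a higher mean with the inhibitor than without it, with a median log2 fold change of 0.27 (0.02 over all genes, of which 53.3% were higher). At an unadjusted p under 0.05, 3 members were higher (6.18% of all genes) and 0 lower (5.26%), and 0 passed the adjusted threshold in edgeR (0%). They were *Tnfrsf10b* (0.52, SE 0.18, unadjusted p = 0.00603), *Mdm2* (0.32, SE 0.11, unadjusted p = 0.00633) and *Sesn2* (0.42, SE 0.16, unadjusted p = 0.0148). *Cdkn1a* had a log2 fold change of 0.78 (95% interval -0.08 to 1.63), since 5-FU replicate 5 at 343.1 CPM exceeded all combination tumors while the other 4 lay below them. Without that tumor 10 members had an unadjusted p under 0.05, and the share of all genes in that fit is not given here. Of the 5-FU tumors, replicates 1, 2 and 3 hold sample code number 76, which no inhibitor-treated tumor has.

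**Figure D3:**
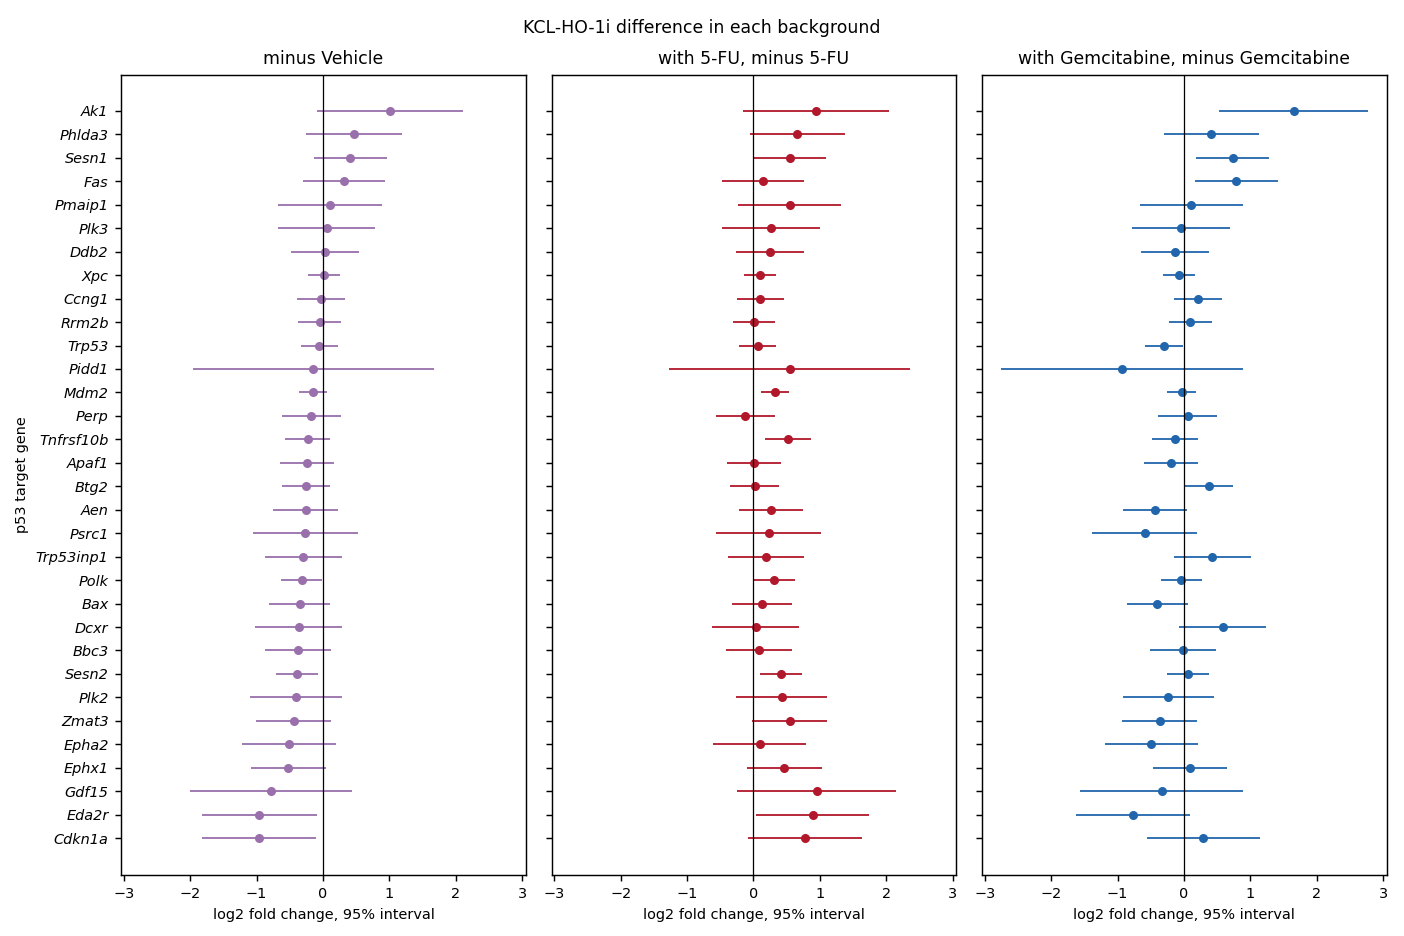
Log2 fold change with its 95% interval for KCL-HO-1i in tumors without chemotherapy (left), with 5-FU (middle) and with gemcitabine (right), for 32 genes ordered by the left panel. Points above 0 number 8 of 32 on the left, 31 of 32 in the middle and 14 of 32 on the right.

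With gemcitabine the members took no common direction. KCL-HO-1i/Gemcitabine tumors had 14 of 32 members higher than Gemcitabine tumors (50% of all genes), with a median log2 fold change of -0.04; 3 were higher and 1 lower at an unadjusted p under 0.05, beside 6.94% and 6.51% of all genes, and 0 passed the adjusted threshold (0%). The higher ones were *Ak1*, the cytosolic adenylate kinase (1.66), *Sesn1* (0.73) and *Fas*, the receptor of Fas ligand (0.79), and the lower one was *Trp53* (-0.30, unadjusted p = 0.0474, adjusted p = 0.367 in edgeR). The *Ak1* value was 0.70 without KCL-HO-1i/Gemcitabine replicate 2, and the total of 4 members ranged from 2 without Gemcitabine replicate 1 to 9 without Gemcitabine replicate 4. Gemcitabine against Vehicle had 17 of 32 members higher (55.5% of all genes), and at an unadjusted p under 0.05 it had 1 higher (2.05%) and 0 lower (1.78%). This was *Trp53* at 0.38 on the log2 scale (adjusted p = 0.941 in edgeR). Its Gemcitabine values were 180.8, 113.5, 114.6, 88.6 and 96.9 CPM against 104.8, 91.4, 76.16, 94.1 and 92.0 CPM in Vehicle. The groups overlapped, and without Gemcitabine replicate 1 the log2 fold change was 0.18 and 0 members had an unadjusted p under 0.05. The next smallest p-values were those of *Btg2* at -0.32 (-0.22 without Gemcitabine replicate 1) and *Trp53inp1* at -0.52 on the log2 scale. Gemcitabine replicate 3 stood apart in the targets, with 245 CPM of *Bax*, 127.9 CPM of the p53-induced exonuclease *Aen* and 72.1 CPM of *Zmat3*, and its proliferation markers summed to 1824 CPM, the highest of all libraries.

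When gemcitabine was added to the inhibitor, 26 of 32 members had a higher mean (54.1% of all genes), with a median log2 fold change of 0.25; 3 had an unadjusted p under 0.05 (1.2% of all genes were higher at this level) and 0 lower (1.46%), *Cdkn1a* at 1.07, *Dcxr* (xylulose reductase) at 0.73 and *Ccng1* at 0.38, each with an adjusted p of 1 in edgeR. The *Cdkn1a* value was 0.51 without KCL-HO-1i/Gemcitabine replicate 3, whose 254.8 CPM was the highest of its group, followed by 121.4 CPM. *Ccng1* was at 0.18 without KCL-HO-1i/Gemcitabine replicate 2, *Dcxr* was at 0.48 when replicate 4 of that group was left out, and the count of 3 was 0 without KCL-HO-1i replicate 2 and 5 when KCL-HO-1i/Gemcitabine replicate 1 was left out. The interaction of KCL-HO-1i with gemcitabine had 23 of 32 members positive (47.7% of all genes) and 1 at an unadjusted p under 0.05 in the positive direction (0.644% of all genes) and 0 in the negative (0.695%), *Btg2* at 0.64 (adjusted p = 1). It was followed by *Cdkn1a* at 1.26 (0.70 without KCL-HO-1i/Gemcitabine replicate 3) and *Dcxr* at 0.95, and the count of 1 was 0 without Gemcitabine replicate 1 but 6 when KCL-HO-1i/Gemcitabine replicate 2 was left out. Averaged over both backgrounds gemcitabine had 23 of 32 higher (56.6%) and 1 at this level, *Trp53* at 0.25 (adjusted p = 0.838), beside 2.54% of all genes higher and 2.6% lower. The *Trp53* average was 0.15 without Gemcitabine replicate 1, and the count of 1 was 3 without Gemcitabine replicate 2. *Ccng1* at 0.26 (0.16 without KCL-HO-1i/Gemcitabine replicate 2) and *Pmaip1* at 0.55 (0.20 without Gemcitabine replicate 3) followed. In these 3 contrasts, edgeR and DESeq2 placed 0 members and 0% of all genes past the adjusted threshold. Against Vehicle, KCL-HO-1i/Gemcitabine had 3 members higher at an unadjusted p under 0.05 (11.7% of all genes) and 0 lower (8.04%), again *Ak1* at 1.67, *Fas* at 0.90 and *Sesn1* at 0.71, a share close to the background. Without KCL-HO-1i/Gemcitabine replicate 2 the *Ak1* value was 0.71 and the count was 1, while leaving out replicate 4 of the same group gave 6. *Sesn1* was the only member without overlap there (2.2% of all genes), and limma-voom and DESeq2 each called 1 member, beside 9.59% and 6.49% of all genes.

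Averaged over the 3 backgrounds, 18 of 32 members were higher with the inhibitor (49.8% of all genes), with a median log2 fold change of 0.02 (0.00 over all genes) and 0 past the adjusted threshold in edgeR, where 8 genes or 0.0586% passed. Opposite means in the backgrounds lie behind this average for *Cdkn1a*, at 0.03 (95% interval -0.46 to 0.53), for *Sesn2* at 0.03 (-0.15 to 0.21) and for *Mdm2* at 0.05 (-0.08 to 0.17). At an unadjusted p under 0.05, 4 members were higher (13.7% of all genes) and 0 lower (9.22%). With the leading number of the sample code as a covariate, 0 members were at this level, in a fit that ties Vehicle to the other groups through Vehicle replicate 1 alone. *Ak1* had the largest average, at 1.204 (SE 0.33) with an adjusted p of 0.0556 in edgeR, and in log2 CPM it exceeded the mean of its background in 13 of 15 inhibitor-treated tumors (12 on the linear scale). *Sesn1*, a sestrin with an antioxidant role, had 0.57 (SE 0.16, adjusted p = 0.057 in edgeR) and exceeded it in 14 of 15 (13 on the linear scale). *Phlda3*, a repressor of Akt signalling, had 0.51 and *Fas* 0.42, with adjusted p-values of 0.146 and 0.167; without KCL-HO-1i replicate 4 the *Phlda3* average was 0.26. DESeq2 called *Ak1* and *Sesn1* (adjusted p = 0.00809 and 0.0168), beside 8.38% of all genes. Of the other members that were always to be named, *Trp53* had -0.10, *Ccng1* 0.10, *Bax* -0.21, *Bbc3* -0.10, *Eda2r* -0.28, *Trp53inp1* 0.11, *Zmat3* -0.09 and *Gdf15* -0.06, none with an unadjusted p under 0.05. Without Gemcitabine replicate 3, *Bax* had -0.08 and *Eda2r* -0.12.

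The *Ak1* and *Phlda3* values moved with markers of other tissue. *Ak1* was at 14.1, 18.0, 50.1, 63.4 and 11.7 CPM in KCL-HO-1i tumors, 26.5, 34.9, 97.2, 26.2 and 22 CPM in KCL-HO-1i/5-FU tumors and 18.3, 145.8, 41.8, 15.5 and 26.6 CPM in KCL-HO-1i/Gemcitabine tumors, against 11.1 to 19.8 CPM in Vehicle. Of these high tumors, KCL-HO-1i replicates 3 and 4 and KCL-HO-1i/Gemcitabine replicate 2 were those with the most skeletal muscle marker RNA, whereas KCL-HO-1i/5-FU replicate 3, at 97.2 CPM of *Ak1*, had a muscle marker sum of 1.85 CPM. Across the 30 libraries, after removal of the group means, *Ak1* correlated with the muscle score, the mean log2 CPM of the 10 markers (r = 0.66, permutation p = 0.0021, adjusted over 15 relations 0.0063, and rho = 0.60, permutation p = 0.00317, adjusted 0.0119). The correlation was 0.56 without the 2 libraries farthest from the median score. *Ak1* also correlated with the adipocyte score (r = 0.54, permutation p = 0.0104, adjusted 0.0224, and rho = 0.46, permutation p = 0.0291, adjusted 0.0496). That r was 0.62 without the 2 farthest libraries. Adipocyte markers summed to 8629 CPM in KCL-HO-1i replicate 4 and 9529 CPM in KCL-HO-1i/Gemcitabine replicate 2. With the muscle score as a covariate, chosen after seeing the data, the *Ak1* average was 0.54 (unadjusted p = 0.0609) and that of *Phlda3* 0.18 (unadjusted p = 0.357). *Phlda3* stood at 100 CPM in KCL-HO-1i replicate 4 beside 20.3 to 25.9 CPM in the other KCL-HO-1i tumors. All 10 muscle markers had an unadjusted p under 0.05 in the average, with a median log2 fold change of 3.33. *Sesn1* correlated with the fibroblast score (r = 0.66, permutation p = 0.0016, adjusted 0.006, and rho = 0.56, permutation p = 0.00457, adjusted 0.0137, with r = 0.60 without the 2 farthest libraries), and all 8 fibroblast markers were higher at an unadjusted p under 0.05. The relation of *Sesn1* to the muscle score was not tested. The part of these tissues in the member differences was not tested beyond the covariates.

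Markers of cell division and of other tissue also differed between KCL-HO-1i tumors and KCL-HO-1i/5-FU tumors, the pair in which the targets were most separated. The 12 proliferation markers summed to 148.8 to 788 CPM in the combination and 582.8 to 920.1 CPM with KCL-HO-1i alone, with 9 of 12 lower at an unadjusted p under 0.05 and a median log2 fold change of -1.05. The muscle markers summed to 1.64 to 59.3 CPM against 19.3 to 4594 CPM, with 10 of 10 lower at this level, and the adipocyte markers to 14.3 to 553.5 CPM against 47.8 to 8629 CPM, with 7 of 10 lower. With 1 marker score at a time as a covariate, chosen after seeing the data, 13 members had an unadjusted p under 0.05 for proliferation, 15 for muscle, 11 for adipocytes, 12 for luminal epithelium and 14 for macrophages. The shares of all genes in these fits are not given here, so the counts are not set against a background. *Cdkn1a* had a log2 fold change of 1.64 (unadjusted p = 0.00163) with the proliferation score. Without KCL-HO-1i replicate 4, the tumor richest in muscle and adipocyte markers of its group, 13 members had an unadjusted p under 0.05. That count is not set against a background either.

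Libraries of both groups that share the leading number of the sample code were also compared. Number 65 holds KCL-HO-1i replicate 5, with 61.8 CPM of *Cdkn1a*, and KCL-HO-1i/5-FU replicates 1 and 5, with 255.6 and 178 CPM. Number 70 holds KCL-HO-1i replicates 2 and 3, with 41.7 and 38.4 CPM, and KCL-HO-1i/5-FU replicate 3, with 210.3 CPM. Within both numbers, every combination tumor exceeded every KCL-HO-1i tumor for 19 of 32 members (19.2% of all genes) and lay below for *Perp* alone (21.3%). These are the libraries of the comparison above and no separate data. With the number as a covariate in edgeR, 6 members instead of 14 had an unadjusted p under 0.05, among them *Cdkn1a* at a log2 fold change of 1.73 (adjusted p = 0.245), *Polk* at 0.59 (adjusted p = 0.218) and *Ephx1* at 0.88 (adjusted p = 0.26). The shares of all genes at this level with the covariate are not given here. Number 74 holds 5-FU replicate 5 and KCL-HO-1i/5-FU replicates 2 and 4, at 343.1, 235.5 and 218.7 CPM of *Cdkn1a*, so that the 5-FU tumor with high targets shared its number with tumors of the combination. With this covariate the count was 1 instead of 8 for the interaction with 5-FU, 1 instead of 3 for KCL-HO-1i/5-FU against 5-FU, 0 instead of 3 for KCL-HO-1i against Vehicle and 0 instead of 7 for KCL-HO-1i/5-FU against Vehicle. The interaction and the comparisons with Vehicle then rest on Vehicle replicate 1, the only Vehicle library whose number recurs in another group. KCL-HO-1i/5-FU against 5-FU then rests on 5-FU replicates 4 and 5. The other 5-FU tumors hold number 76, which no inhibitor-treated library has. Lower counts there cannot be ascribed to the number itself.

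Tumor by tumor, the median over the members varied least in the KCL-HO-1i/5-FU group. The median of the 32 members' deviations from their means over all 30 libraries was 0.22 to 0.29 on the log2 scale in the 5 combination tumors, with 23 to 30 members above their mean. It was -0.32 to -0.05 in KCL-HO-1i tumors, with 5 to 16 members above. The 4 remaining groups spanned both signs, from -0.19 to 0.21 in Vehicle, -0.25 to 0.46 in 5-FU, -0.22 to 0.24 in Gemcitabine and -0.28 to 0.32 in KCL-HO-1i/Gemcitabine. The highest tumor of all was 5-FU replicate 5.

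**Figure D4:**
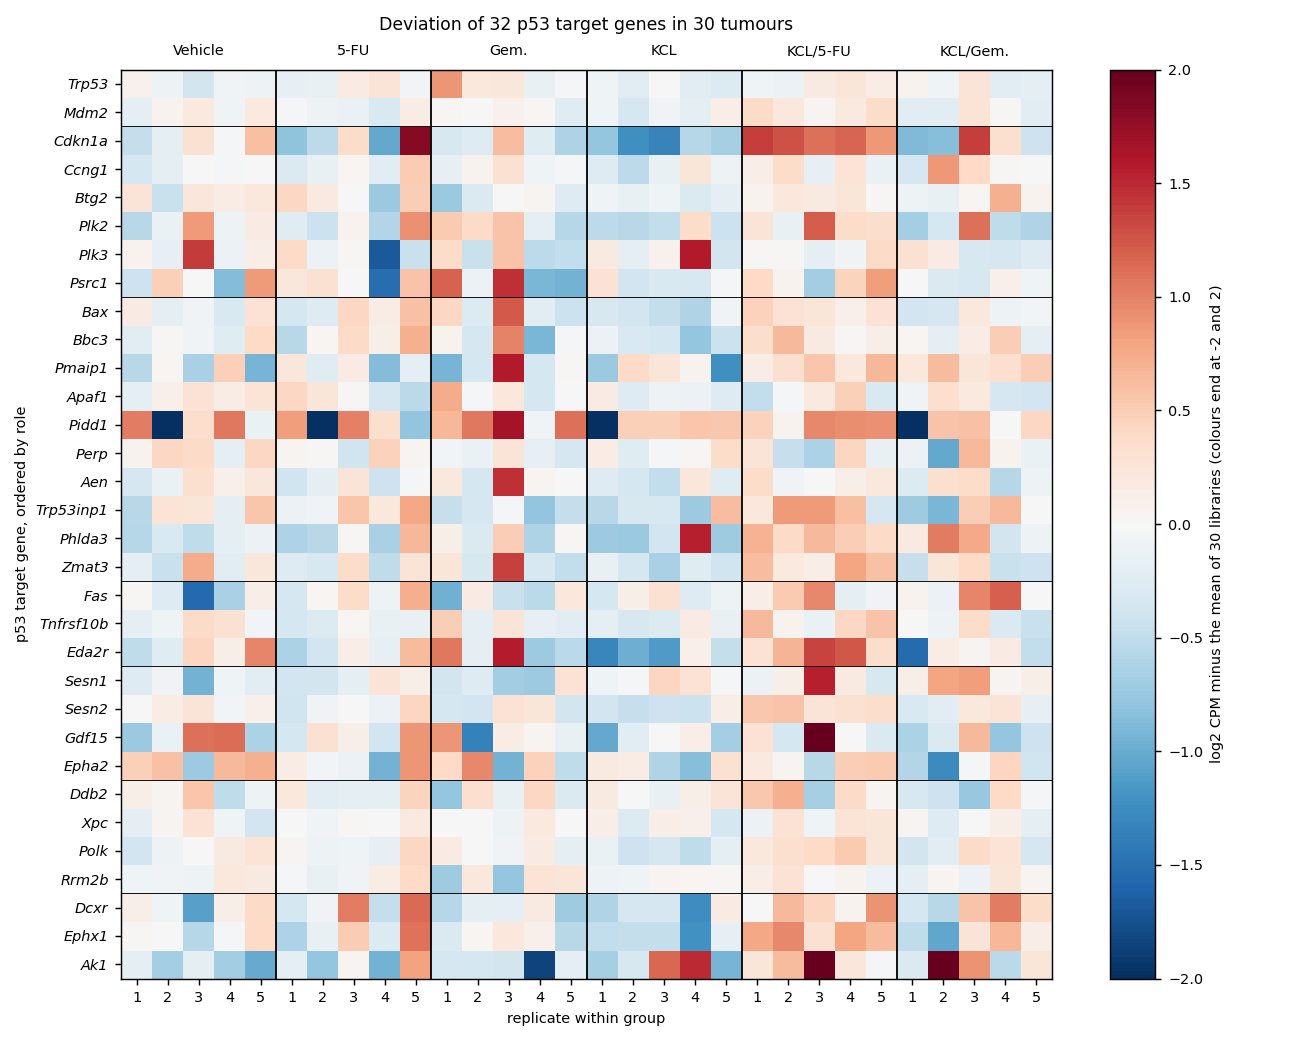
Deviation of each of the 32 genes (rows, ordered by role) from its mean over 30 libraries, in log2 CPM, for every tumor (columns, by group and replicate), with red above and blue below the mean. The 5 KCL-HO-1i/5-FU columns have 23 to 30 genes above their mean and the 5 KCL-HO-1i columns 5 to 16, while 5-FU replicate 5, Gemcitabine replicate 3 and KCL-HO-1i/Gemcitabine replicate 3 stand out from their groups.

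Members also varied together between tumors of the same group. With group means removed, 29 of the 31 other members correlated positively with *Cdkn1a* over the 30 libraries, with a median r of 0.37 (-0.02 over all genes), and 12 of them (38.7%) had an r above 0.5, against 0.798% of all genes. The members most like it were *Plk2* (r = 0.72, permutation p = 0.00018, adjusted over 15 relations 0.0009, and rho = 0.66, permutation p = 0.0005, adjusted 0.00375), *Mdm2* (r = 0.71, permutation p = 9e-05, adjusted 0.000675, and rho = 0.64, permutation p = 0.00075, adjusted 0.00375) and *Sesn2* (r = 0.71, permutation p = 8e-05, adjusted 0.000675, and rho = 0.68, permutation p = 0.00017, adjusted 0.00255). Without the 2 tumors farthest from the median of *Cdkn1a*, these r values were 0.53, 0.58 and 0.63. *Trp53* did not follow *Cdkn1a* (r = -0.01, permutation p = 0.952, adjusted 0.952, and rho = -0.09, permutation p = 0.682, adjusted 0.682, with r = -0.15 without the 2 farthest tumors), and with *Trp53* as the reference 17 of 31 members correlated positively, none with an r above 0.5 (3.24% of all genes). The most negative were *Ddb2* at an r of -0.65, *Rrm2b* at -0.528 and *Btg2* at -0.525. Of all genes, 0.629%, 2.69% and 2.75% had a lower r than these. The libraries share code numbers and composition. *Plk2*, *Mdm2* and *Sesn2* were picked for their likeness to *Cdkn1a* in these same libraries, and their permutation p-values do not allow for that choice. The values are a description.

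**Figure D5:**
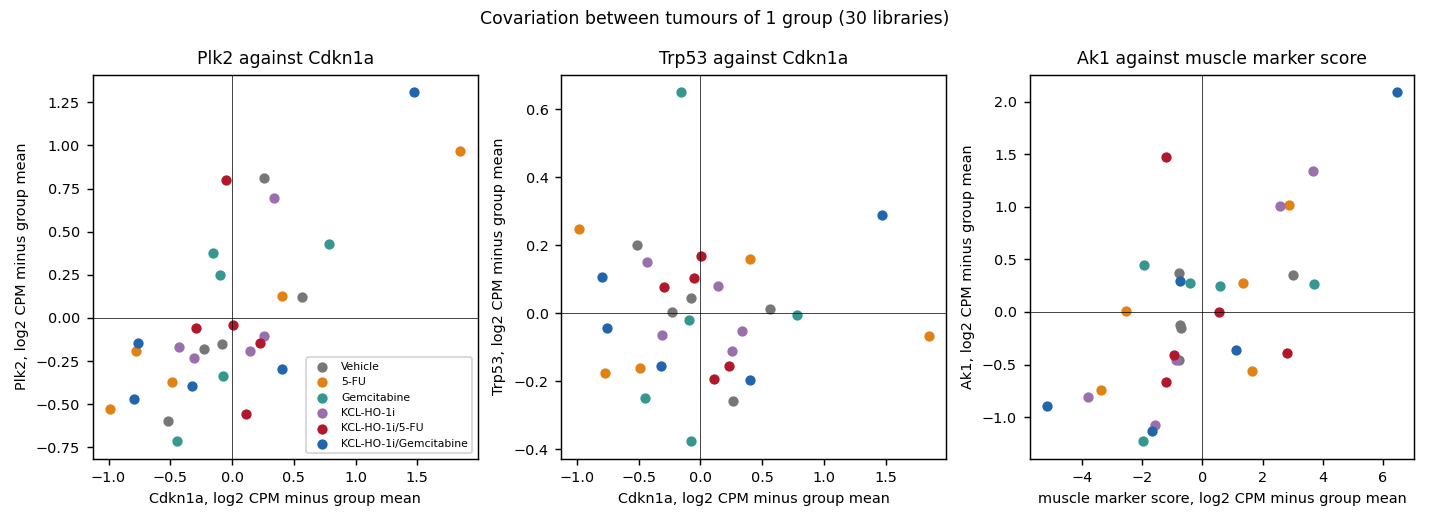
Levels in 30 tumors as log2 CPM minus the mean of their treatment group: Plk2 against Cdkn1a (left), Trp53 against Cdkn1a (middle) and Ak1 against the skeletal muscle marker score (right), colored by group. The correlations are 0.72, -0.01 and 0.66, and the 2 tumors at the far right of the first panel are KCL-HO-1i/Gemcitabine replicate 3 and 5-FU replicate 5.

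Other genes of the pathway were counted in the same way. A list of 20 genes held p53 regulators, such as the damage kinases and the ubiquitin enzymes, and also the p53 relatives *Trp63* and *Trp73*. When 5-FU was added to the inhibitor, 1 was higher and 2 were lower at an unadjusted p under 0.05, beside 7.47% and 9.43% of all genes. They were *Ep300*, a histone acetyltransferase, at 0.32, and the checkpoint kinases *Atr* at -0.38 and *Chek1* at -0.72 on the log2 scale. In the average over backgrounds, 3 of 20 were lower with the inhibitor, beside 9.22% of all genes: *Atm*, the double-strand break kinase, at -0.55 (adjusted p = 0.0525 in edgeR), *Chek1* at -0.70 (adjusted p = 0.0525) and *Usp7*, a deubiquitinase of Mdm2 and p53, at -0.31 (adjusted p = 0.0593). Of 15 further p53 targets, 14 were tested, and 3 were higher when 5-FU was added to the inhibitor (7.47% of all genes) and 0 lower (9.43%): *Gadd45a*, a growth arrest gene, at 1.03, *Fdxr*, a mitochondrial reductase, at 0.61 and *Trp53i11* at 0.89, with adjusted p-values of 0.18 to 0.255. Their median log2 fold change was 0.07. In the average, *Dram1*, an autophagy gene, was higher at 1.5 (adjusted p = 0.0635), beside 13.7% of all genes. In edgeR, neither list held a gene past the adjusted threshold in these contrasts.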

How the data were processed

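Whole-tumor RNA was measured in 30 libraries. Per the labels, the authors used the RNeasy kit and the NEBNext Ultra II Directional library kit, and the submitters' processing notes name FastQC 0.11.9, STAR 2.7.9a, Salmon 1.9.0 and DESeq2 with the mm10 genome. The deposited values are estimated counts per gene (expected counts; 38% of values were not whole), and they were rounded here to whole numbers. Groups came from the treatment labels.

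Counts were normalized by TMM and fitted with 6 group means in edgeR 4.0.16 (R 4.3.3, robust quasi-likelihood test, filterByExpr with a minimum count of 10). P-values were adjusted by Benjamini-Hochberg over 13663 genes, threshold 0.05, two-sided. CPM used TMM library sizes, log2 CPM a prior count of 2, and 95% intervals of log2 fold changes were taken from the SE. Correlations were tested by 100000 permutations within groups (scipy). These intervals include the spread between tumors, whereas the floor of 3 counts covers counting error only. The members and lists were chosen with earlier results of these data known. Named were 12 fixed members, the 5 members with the smallest p in the inhibitor average and the 3 with the smallest p in every other contrast, and, after their values were seen, further members with separated groups. The comparisons of the combinations with Vehicle were added after the data were seen. Alternatives were RLE normalization, DESeq2 1.42.0, limma-voom (limma 3.58.1), no filter on low counts, a filter at a mean of 50 counts, a replicate block, the sample code's leading number as a factor, a fit to the compared groups only, and leaving out each library; the 5 marker scores were added later. On simulated data with 13663 genes, edgeR recovered 78.8%, 92.5% and 97% of genes changed by a log2 of 1, 2 and 3 in the inhibitor average. These shares describe the simulation only, and recovery in the other contrasts was not tested. In the tumors, 6.66% of all genes had an inhibitor average beyond a log2 of 1 in either direction, while 8 genes passed the adjusted threshold. No 2 libraries of a group were alike within counting noise (lowest chi-square per degree of freedom 19.6 over 60 pairs). The study describes cohorts of mice and tumors, with mice collected on separate days; the labels do not tie libraries to animals. No column remained unmapped.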

Additional observations from a re-analysis of the deposited data

Results flagged for a closer look

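Of 192 sets of 5 tumors (32 genes in 6 groups), 18 (9.38%) held a tumor whose gap to its nearest neighbor, relative to the range of the group in log2 CPM, exceeded Dixon's critical value, where chance alone gives about 1 in 20. High tumors were *Phlda3* at 100 CPM, *Plk3* at 26.6 CPM and *Plk2* at 75.7 CPM in KCL-HO-1i replicate 4, *Sesn2* at 34.4 CPM in KCL-HO-1i replicate 5, *Gdf15* at 6.78 CPM and *Sesn1* at 67.3 CPM in KCL-HO-1i/5-FU replicate 3, *Plk2* at 125.8 CPM in KCL-HO-1i/Gemcitabine replicate 3, *Btg2* at 102.5 CPM in KCL-HO-1i/Gemcitabine replicate 4 and *Plk3* at 23.2 CPM in Vehicle replicate 3. Low tumors were *Epha2* at 85.8 CPM and *Sesn1* at 11.8 CPM in Vehicle replicate 3, *Btg2* at 46.1 CPM in Vehicle replicate 2, *Psrc1* at 18.2 CPM in 5-FU replicate 4, *Mdm2* at 50.4 CPM in Gemcitabine replicate 5 and *Ak1* at 6.13 CPM in Gemcitabine replicate 4. *Pidd1* was listed at 0 CPM in Vehicle replicate 2, KCL-HO-1i replicate 1 and KCL-HO-1i/Gemcitabine replicate 1.

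For 7 members, every inhibitor-treated tumor lay, in log2 CPM, on one side of the mean without the inhibitor in 1 background and every one on the opposite side in another. On the linear scale *Pidd1* did not show this, with KCL-HO-1i/5-FU replicate 2 at 2.15 CPM below the 5-FU mean of 2.35 CPM. *Aen* did so on that scale, where the number of members was again 7. The share of all genes with this pattern was not computed, so the number is not set against a background. The log2 fold changes without chemotherapy and with 5-FU were -0.97 and 0.78 for *Cdkn1a*, -0.44 and 0.54 for *Zmat3*, -0.96 and 0.89 for *Eda2r*, -0.32 and 0.31 for *Polk* and -0.52 and 0.47 for *Ephx1*. *Eda2r* also had -0.76 with gemcitabine. *Btg2* had -0.26 without chemotherapy and 0.38 with gemcitabine, and *Pidd1* 0.55 with 5-FU and -0.94 with gemcitabine. Both *Pidd1* values include a library listed at 0 CPM, 5-FU replicate 2 and KCL-HO-1i/Gemcitabine replicate 1. The interaction terms of the 5 members with a 5-FU difference had unadjusted p-values of 0.00597 to 0.0234 and none passed the adjusted threshold in edgeR. That of *Btg2* with gemcitabine had an unadjusted p of 0.0217. The difference between 5-FU and gemcitabine for *Pidd1* and *Eda2r* was not tested.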

How the results depend on the processing

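No member passed the adjusted threshold in any contrast in edgeR, and this count was 0 in 587 repeats of these contrasts under the alternatives. It became 5 (DESeq2), 3 (limma-voom) and 1 (only the groups compared) when 5-FU was added to KCL-HO-1i, 2 (DESeq2) and 0 to 2 (leaving out 1 library, 2 without 5-FU replicate 5, Gemcitabine replicate 5, KCL-HO-1i/5-FU replicate 4 or 5, or KCL-HO-1i/Gemcitabine replicate 4, and 1 without KCL-HO-1i replicate 1 or 5) for the inhibitor average, 1 (DESeq2) for the 5-FU average, and 1 (DESeq2 and limma-voom) for KCL-HO-1i/Gemcitabine against Vehicle. Where counts of members at an unadjusted p are given without 1 library or with the replicate block, the shares of all genes are not given here. The median of the inhibitor average, 0.02, ranged from -0.03 to 0.05 without 1 library. Values of this average changed sign, and the cause was not tested: with the leading number of the sample code, *Fas* (-0.13, from 0.42), *Cdkn1a* (-0.33) and *Sesn2* (-0.21); with limma-voom, *Bbc3* (0.050) and *Zmat3* (0.053); with the adipocyte score, *Zmat3* (0.010); with the muscle score, *Cdkn1a* (-0.064) and *Ccng1* (-0.077); with the macrophage score, *Bax* (0.043), *Bbc3* (0.012), *Eda2r* (0.016) and *Zmat3* (0.23); and with the proliferation score, *Cdkn1a* (-0.095), *Trp53inp1* (-0.009), *Zmat3* (0.039) and *Sesn2* (-0.026). Without 1 library, *Cdkn1a* ranged from -0.15 to 0.29, *Sesn2* from -0.027 to 0.075, *Gdf15* from -0.47 to 0.048, *Bbc3* from -0.18 to 0.013, *Zmat3* from -0.14 to 0.07 and *Trp53inp1* from -0.005 to 0.16. The code number also reversed *Trp53inp1* in Gemcitabine against Vehicle (0.77), *Dcxr* in the gemcitabine interaction (-0.20), *Ak1* in KCL-HO-1i/5-FU against Vehicle (-0.62) and *Fas* in KCL-HO-1i/Gemcitabine against Vehicle (-0.014). All of these contrasts include Vehicle, as does the inhibitor average. In the fit with the code number, Vehicle is tied to the other groups through Vehicle replicate 1 alone.

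Replicate numbers did not pair the libraries: deviations from group means had a mean correlation of 0.00284 in 75 same-number pairs and 0.00196 in 300 others, and 8 of 30 libraries correlated best with their own number. With the replicate block, 0 members passed the adjusted threshold in each contrast, and 13 instead of 14 had an unadjusted p under 0.05 when 5-FU was added to the inhibitor, and 6 instead of 3 in KCL-HO-1i/5-FU against 5-FU. With 5 tumors a group and a common biological coefficient of variation of 0.401, small differences are not detectable here.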

Other observations

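*Dcxr* lies on the distal end of chromosome 11, at 120724546 to 120727284 (GRCm38.p6). The median deviation of its 20 tested neighbors from their medians over libraries was 0.63 on the log2 scale in Gemcitabine replicate 4 and 0.99 in replicate 5 of KCL-HO-1i/5-FU, against -0.14 to 0.33 in the other 28 libraries. *Dcxr* itself deviated by 0.20 and 0.94 in these tumors. With group means removed, *Dcxr* and the neighbor median had an r of 0.33 (permutation p = 0.01, adjusted over 15 relations 0.0224) and a rho of 0.36 (permutation p = 0.0297, adjusted 0.0496), and r was 0.22 without the 2 farthest libraries.

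*Psrc1*, a p53-regulated spindle protein, correlated with the proliferation score by rank (rho = 0.54, permutation p = 0.0108, adjusted 0.0271) but not past the threshold by r (0.41, permutation p = 0.0817, adjusted 0.123, and 0.66 without the 2 farthest libraries). *Cdkn1a* had an r of -0.33 with this score (permutation p = 0.144, adjusted 0.196, and rho = -0.20, permutation p = 0.333, adjusted 0.417), and -0.05 without the 2 farthest libraries.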
